A study of Pseudotsuga menziesii with 66 samples.

Results

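The needles of 4 Douglas-fir trees (Pseudotsuga menziesii) were compared on 7 Jul 2011 and 17 Jun 2011, 20 days apart and on either side of the summer solstice. The comparison holds the 8 libraries whose column names give either date, 4 per date, out of 66 libraries from 16 dates. The same trees, CCTO44, CCTO46, CCTO89 and CCTO90, were sampled on both dates, so every tree was set against itself. A library was made from 8 to 12 needles of a single tree, pooled from branches facing 4 directions, and the needles belonged to the set that grew in 2010. Needles were taken at about noon. All the trees grew in 1 common garden in Oregon, where they were planted at 2 years of age in the year before sampling began, and all came from the Oregon Siskiyou low-elevation source. Within that source, CCTO44 and CCTO90 came from the higher of 2 seed localities, and CCTO46 and CCTO89 from the lower. No tree was treated, so the dates differ in everything that moved with the calendar, and daylength, weather and the age of the needles cannot be told apart.

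Douglas-fir is an evergreen conifer that keeps its needles for several years, so needles formed in an earlier season work beside the new shoots of the current one. Conifers read daylength through phytochromes, the red-light receptors, together with the circadian clock, and shortening days are a known cue for setting buds. In the dry summers of southern Oregon, shoot growth of this species is usually over before the driest weeks. The files give transcripts by identifier without gene names, so transcripts are named here by identifier and no function is assigned to them.

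Whole-number read counts were available for 199471 transcripts. The libraries held 20377109 to 25648111 counts on 7 Jul and 18318650 to 25162666 on 17 Jun, and 60931 transcripts had enough counts over the series to be tested, holding 99.7% to 99.8% of each library. Values below are CPM (counts-per-million) scaled by TMM, a normalization that evens out differences in composition between libraries. A library in which a transcript has no count allows up to 3 counts, or 0.121 to 0.160 CPM on 7 Jul and 0.165 to 0.178 CPM on 17 Jun, which covers counting error only. In needles as a whole, fewer cells of a type and less RNA per cell cannot be told apart.

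Between these dates, 6531 transcripts rose and 5465 fell in the needles, which were 10.7% and 8.97% of those tested and 19.7% together (quasi-likelihood F test of edgeR in a model that pairs the libraries by tree; calls at a p under 0.05 after Benjamini-Hochberg adjustment). The median change was 1.29 on the log2 scale among risen transcripts and -1.09 among fallen ones, against 0.02 over all tested. Of the risen transcripts, 4321 changed at least 2-fold, 1544 at least 4-fold and 623 at least 8-fold. Of the fallen, these numbers were 2960, 1324 and 508. Whether rises or falls were more numerous depended on the scaling: there were 5942 rises and 6220 falls with RLE factors, 5906 and 6252 with upper-quartile factors, and 6418 and 6458 with DESeq2. The number of calls depended on single trees and on the pairing: without CCTO44, CCTO46 or CCTO89 there were 3925, 3716 and 3790 rises and 3624, 3453 and 3714 falls, and without the tree as a replicate block there were 3838 rises and 2945 falls. With the 17 Jun libraries of CCTO44 and CCTO89 left out, an alternative added after the values were seen, 3734 rose and 3595 fell. In none of these fits was a transcript called in the opposite direction.

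The 8 transcripts with the largest rises, among those with a mean of at least 10 CPM and the same direction in every tree, began with psme_t065053, whose rise rested on a single tree. It stood at 193 CPM in CCTO89 on 7 Jul, against 0 CPM in that tree on 17 Jun, and between 0.105 and 0.242 CPM in the other trees on 7 Jul, against 0.0594 to 0.171 CPM on 17 Jun. Its fitted change was 7.86 ± 2.43 (log2, SE; adjusted p = 0.0181), and without CCTO89 it was 0.88 (adjusted p = 0.861).

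The transcript psme_t111352 had 29.1, 65.9, 103 and 34.2 CPM on 7 Jul in CCTO44, CCTO46, CCTO89 and CCTO90, against 2.26, 4.40, 2.42 and 1.70 CPM on 17 Jun. All 4 July values lay far above all 4 June values, and the fold by tree ran between 12.9 and 42.7. Its log2 change was 4.27 ± 0.59 (SE, adjusted p = 3.22e-07).

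For psme_t033283, the July values of the same trees in the same order were 139.7, 443, 291 and 95.5 CPM, against 15.1, 41.3, 15.5 and 4.73 CPM in June. The lowest July tree, CCTO90, was still above the highest June tree, CCTO46 (log2 change 3.70 ± 0.60, SE, adjusted p = 1.09e-05). The transcript psme_t046428 moved beside it, with 160.1, 169, 178 and 84.7 CPM on 7 Jul against 17.9, 15.6, 9.75 and 5.00 CPM on 17 Jun. CCTO90 was lowest on both dates for both of them, and each rose more in CCTO89 and CCTO90 (16.9-fold to 20.2-fold) than in CCTO44 and CCTO46 (8.93-fold to 10.8-fold).

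The rise of psme_t028250 was even across trees. It had 33.5, 33.5, 33 and 23.5 CPM on 7 Jul, against 2.85, 3.08, 2.95 and 2.64 CPM on 17 Jun, so 3 trees were nearly equal on either date and CCTO90 was a little lower in July. The log2 change was 3.44 ± 0.36 (SE, adjusted p = 4.62e-10), the smallest p of the 16 transcripts chosen for the size of their change.

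In psme_t019261, CCTO90 was highest and CCTO89 lowest on both dates. The transcript reached 232 CPM in CCTO90 and 48.0 CPM in CCTO89 on 7 Jul, against 21.2 and 3.43 CPM in these trees on 17 Jun. The dates did not overlap (113 ± 82.0 CPM on 7 Jul and 9.76 ± 7.82 CPM on 17 Jun, SD, n = 4 each; log2 change 3.57, adjusted p = 1.7e-05). In psme_t047539 and psme_t008381, by contrast, differences between trees were so wide that the dates overlapped. CCTO44 had 1.53 CPM of psme_t047539 in July, below the June values of CCTO46 and CCTO89, and CCTO90 had 8.60 CPM of psme_t008381 in July, below the 9.42 CPM of CCTO46 in June. Each tree nevertheless rose by 10.3-fold to 16.2-fold for the first and by 6.26-fold to 14.5-fold for the second (adjusted p = 4.07e-07 and 3.22e-08).

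**Figure D1:**
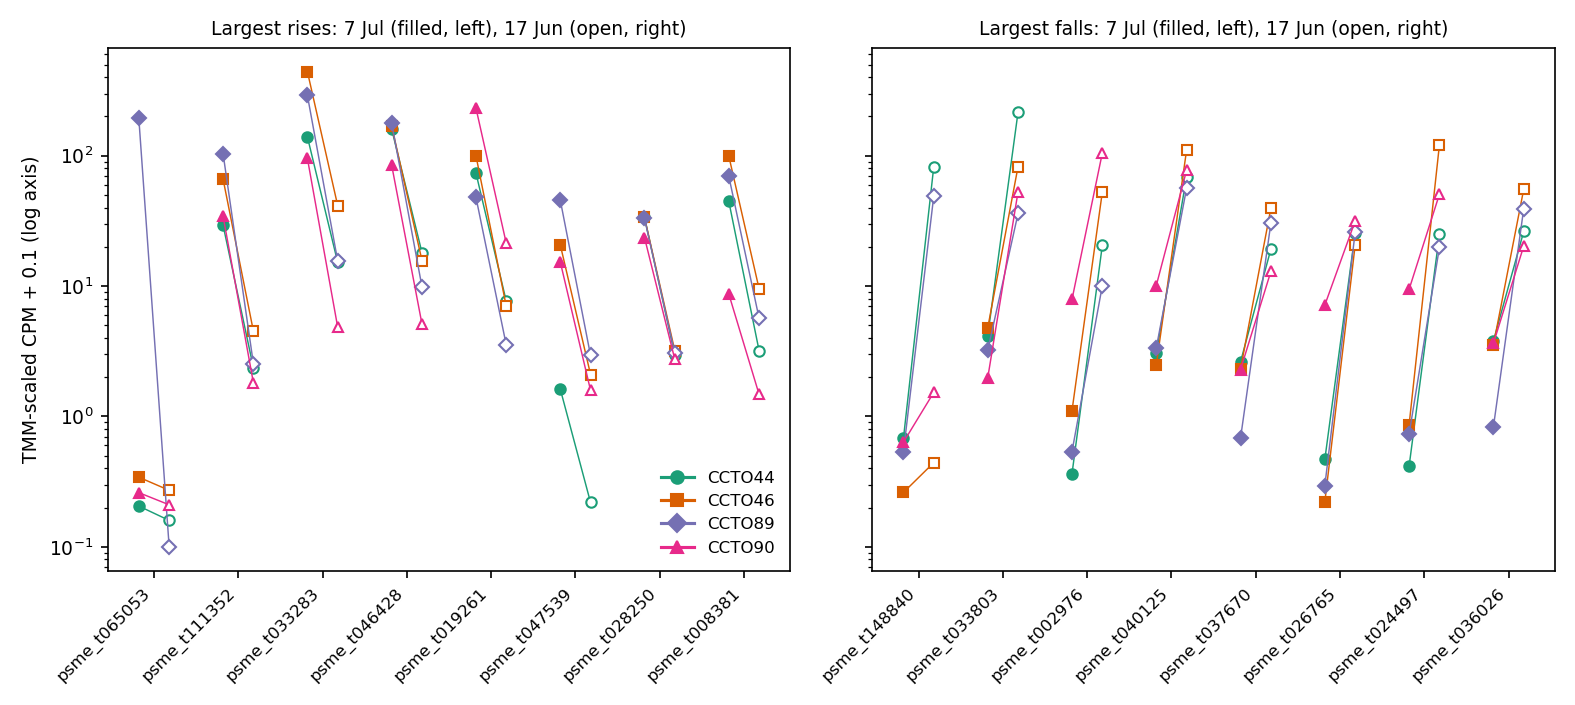
TMM-scaled CPM plus 0.1, on a log axis, of the 8 transcripts with the largest rises and the 8 with the largest falls between the dates, a line per tree joining 7 Jul (filled, left) and 17 Jun (open, right). Lines slope the same way in every tree, but psme_t065053 was high in CCTO89 alone on 7 Jul (193 CPM), and psme_t148840 was high in CCTO44 and CCTO89 alone on 17 Jun (82.5 and 49.1 CPM).

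Among the largest falls, psme_t033803 had 4.06, 4.68, 3.11 and 1.87 CPM on 7 Jul in CCTO44, CCTO46, CCTO89 and CCTO90, against 216, 82.5, 36.0 and 52.9 CPM on 17 Jun. The June trees were far apart while the July trees all sat under 5 CPM, and every tree fell, by 11.6-fold in CCTO89 to 53.4-fold in CCTO44 (log2 change -4.62 ± 0.93, SE, adjusted p = 0.000267).

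For psme_t040125 the July values were 2.95, 2.38, 3.26 and 9.99 CPM, against 68.9, 111, 56.3 and 77.5 CPM in June. CCTO90 kept the most in July and fell the least, 7.75-fold, against 46.6-fold in CCTO46 (log2 change -4.03 ± 0.51, SE, adjusted p = 9.31e-08). The same tree also kept the most of psme_t026765, psme_t024497 and psme_t002976, of which the last averaged 2.38 ± 3.63 CPM on 7 Jul and 47.0 ± 42.7 CPM on 17 Jun (SD, n = 4 each; adjusted p = 0.000458).

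In psme_t026765 the July values were 0.369, 0.121, 0.194 and 7.05 CPM, against 25.5, 20.6, 25.9 and 31.5 CPM in June. CCTO90 fell 4.47-fold, and the other trees 69.3-fold to 170.4-fold (log2 change -3.76 ± 1.03, SE, adjusted p = 0.00666). The transcript psme_t024497 had the same split, with a fall of 5.42-fold in CCTO90 and of 31.3-fold to 159-fold in the others. Neither passed without CCTO46 (adjusted p = 0.0575 and 0.0527), or in a fit of the 8 libraries alone (0.0686 and 0.0652).

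The pair psme_t037670 and psme_t036026 showed another arrangement, in which CCTO89 fell most. On 7 Jul psme_t037670 stood at 0.583 CPM in CCTO89 and 2.19 to 2.53 CPM in the others, against 30.4 CPM in CCTO89 and 12.9 to 39.6 CPM in the others on 17 Jun. On 7 Jul psme_t036026 stood at 0.729 CPM in CCTO89 and 3.43 to 3.69 CPM in the others, against 39.2 CPM in CCTO89 and 20.2 to 55.3 CPM in the others on 17 Jun. Their log2 changes were -3.82 and -3.70 (adjusted p = 0.00118 and 0.00194).

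The remaining large fall, psme_t148840, was carried by CCTO44 and CCTO89. These trees had 0.579 and 0.437 CPM on 7 Jul against 82.5 and 49.1 CPM on 17 Jun, while CCTO46 and CCTO90 had 0.161 and 0.534 CPM on 7 Jul against 0.342 and 1.43 CPM on 17 Jun. The log2 change was -6.13 ± 1.06 (SE, adjusted p = 2.91e-05), and it was -1.20 (adjusted p = 0.567) without the 17 Jun libraries of CCTO44 and CCTO89.

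Several of the largest falls in these trees, by CPM, belonged to a group of transcripts with the same split between trees. The group was picked after the values were seen, so it is described and not tested. Among the 11549 transcripts with a mean of at least 10 CPM, 33 were at least 4-fold lower on 7 Jul in CCTO44 and CCTO89 and moved less than 2-fold in the other trees, while no transcript did so for any other pair of trees. Of these 33, 17 were among the called falls, beside 2263 of all 11549. The 33 were picked for large falls in these libraries, which favours such calls. In 27 of the 33, CCTO44 and CCTO89 were both above the other trees on 17 Jun, and in 6 the levels were mixed. For example, psme_t015121 had 174 and 70.3 CPM in CCTO44 and CCTO89 and 214 and 184 CPM in CCTO46 and CCTO90 on that date. Together the 33 held 0.654% and 0.722% of the tested counts in CCTO44 and CCTO89 on 7 Jul, against 13.4% and 8.51% on 17 Jun. In CCTO46 and CCTO90 they held 0.671% and 0.736% on 7 Jul, against 0.748% and 0.578% on 17 Jun. The 4 July libraries were thus alike, and so were the June libraries of CCTO46 and CCTO90. These sums are mostly those of psme_t001906, psme_t000146 and psme_t002753, which made up 83.1% and 78.1% of them in CCTO44 and CCTO89 on 7 Jul, against 90.4% and 87.6% on 17 Jun. The other 30 together held 0.111% and 0.158% of the tested counts in these trees on 7 Jul, against 1.29% and 1.06% on 17 Jun. In CCTO46 and CCTO90 they held 0.176% and 0.209% on 7 Jul, against 0.167% and 0.138% on 17 Jun.

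The most abundant of the 33 was psme_t001906, with 2613, 2156, 2044 and 2835 CPM on 7 Jul in CCTO44, CCTO46, CCTO89 and CCTO90, against 75429, 2725, 38015 and 2134 CPM on 17 Jun. Next was psme_t000146, with 2164, 1971, 2593 and 2354 CPM on 7 Jul, against 45997, 2813, 25915 and 2610 CPM on 17 Jun. In both, the June values of CCTO46 and CCTO90 lay near those of July and the June values of the other trees stood apart.

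The same holds for psme_t002753, with 1064, 974, 931 and 1198 CPM on 7 Jul, against 28594, 1464, 16497 and 1333 CPM on 17 Jun. The calls for psme_t000146 and psme_t002753 (adjusted p = 0.0058 and 0.00303) were lost without the 17 Jun libraries of CCTO44 and CCTO89, at log2 changes of -0.41 and -0.51. High levels of the group, again mostly those of the 3 transcripts, were not limited to June. Its summed level in the highest library of a date was 123728 CPM on 7 Apr in CCTO44, 119142 CPM on 6 May in CCTO46, 165942 CPM on 17 Jun in CCTO44, 8921 CPM on 7 Jul in CCTO90, 95134 CPM on 7 Sep in CCTO44 and 721913 CPM on 26 Oct 2011 in CCTO43. TMM scaling makes such sums differ from shares of counts: on 26 Oct 2011 CCTO43 held 39.6% of its tested counts in the group. CCTO44 and CCTO90 had 19123 and 35248 CPM on that date. The 12 libraries of 7 Jul, 28 Jul and 17 Aug were all at or below 8921 CPM.

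Among transcripts that take up a large part of the counts, 5 of the 25 that were in the top 20 of either date rose and 6 fell, and 14 did not pass. Of all tested, 10.7% rose and 8.97% fell, and of those at 1000 CPM or more, 24.1% and 16.4%. A transcript could enter the 25 partly through its change between the dates. The ranks are by share of counts, which is not corrected for transcript length. By difference in mean CPM, the largest rises after psme_t040843 were psme_t026477 and psme_t020258. The first had 9596, 7035, 5733 and 6336 CPM on 7 Jul, against 2882, 3170, 2241 and 3718 CPM on 17 Jun, with no overlap (log2 change 1.27 ± 0.19, SE, adjusted p = 9.07e-07). The second had 6798, 6260.1, 5103 and 5131 CPM on 7 Jul, against 2220, 2021, 1642 and 1859 CPM on 17 Jun.

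The rise of psme_t020258 was close to 3-fold in every tree, between 2.76-fold and 3.11-fold (log2 change 1.59 ± 0.19, SE, adjusted p = 1.57e-08). The transcript psme_t040222 rose by 2.70-fold to 3.88-fold, to a mean of 3337 ± 836 CPM on 7 Jul, against 1066 ± 242 CPM on 17 Jun (SD, n = 4 each; adjusted p = 0.000102). A weaker case was psme_t040843, at 15285 ± 1265 CPM on 7 Jul and 10687 ± 1835 CPM on 17 Jun (SD, n = 4 each). The dates did not overlap, but the adjusted p of 0.0355 was near the threshold. It did not pass without CCTO44, CCTO46 or CCTO89 (0.251, 0.101 and 0.0811) or without the tree block (0.0799). Of 15 alternative settings, 7 lost this call.

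The most abundant transcript of 17 Jun, psme_t083272, had 25248, 23634, 13074 and 53741 CPM on 7 Jul in CCTO44, CCTO46, CCTO89 and CCTO90, against 45917, 73892, 28489 and 90439 CPM on 17 Jun. The dates overlapped because CCTO90 was high on both, but each tree fell, by 1.68-fold to 3.13-fold (log2 change -1.09 ± 0.37, SE, adjusted p = 0.0314). Another abundant fall, psme_t077439, had 9726, 17127, 14185 and 20289 CPM on 7 Jul, against 18361, 50416, 22345 and 33824 CPM on 17 Jun (log2 change -1.003 ± 0.363, SE, adjusted p = 0.0433). Neither passed without CCTO44, CCTO46 or CCTO89, where the adjusted p lay between 0.0625 and 0.272, or without the tree block (0.115 and 0.109). Each call was lost in 5 of 15 alternative settings.

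The most abundant transcripts that did not pass were psme_t089477, psme_t046227 and psme_t085274. The first had 36368 ± 21304 CPM on 7 Jul and 36520 ± 19465 CPM on 17 Jun (SD, n = 4 each), and CCTO90 was highest on both dates, with 65458 CPM on 7 Jul and 63675 CPM on 17 Jun. Its log2 change was -0.04 ± 0.35 (SE, adjusted p = 0.964). In psme_t046227, CCTO89 stood apart with 1133 CPM on 7 Jul and 1465 CPM on 17 Jun, whereas the other trees had 15389 to 45644 CPM on 7 Jul and 29918 to 52299 CPM on 17 Jun. The last, psme_t085274, was lower on 7 Jul in each tree by 1.15-fold to 2.30-fold, with an adjusted p of 0.141.

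With TMM scaling, the balance of rises and falls shifted with abundance. Among 33160 transcripts with a mean under 1 CPM, 6.02% rose and 4.42% fell, and among 16222 between 1 and 10 CPM, 16.2% rose and 10.7% fell. Among 9964 between 10 and 100 CPM the shares were 17.0% and 18.7%. Falls outnumbered rises among 1469 transcripts between 100 and 1000 CPM, by 383 to 193, and the 116 transcripts at 1000 CPM or more had 28 rises and 19 falls. The median size of a called change was 2.205 on the log2 scale under 1 CPM and 0.76 between 10 and 100 CPM. At low counts a change has to be larger to be called.

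**Figure D2:**
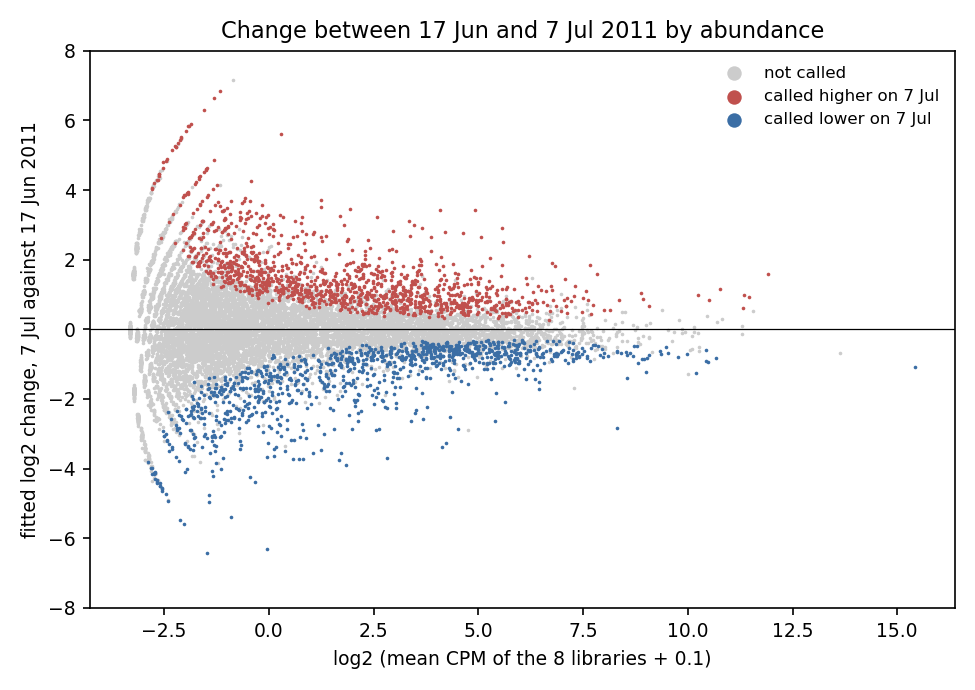
Fitted log2 change of 7 Jul against 17 Jun for 12000 tested transcripts, drawn at random, by their log2 mean CPM plus 0.1 in the 8 libraries. Called rises (red) outnumber called falls (blue) at low levels, called falls outnumber called rises between 10 and 1000 CPM, and called changes are larger at low levels.

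In counts, risen transcripts made up 21.2 ± 2.48% of the tested counts on 7 Jul and 9.45 ± 0.524% on 17 Jun (SD, n = 4 each). Fallen transcripts made up 16.7 ± 1.54% on 7 Jul and 31.5 ± 3.23% on 17 Jun. With the 25 top transcripts left out, risen transcripts made up 22.4 ± 1.46% on 7 Jul and 10.8 ± 0.587% on 17 Jun, and fallen ones 15.2 ± 1.02% on 7 Jul and 25.9 ± 0.523% on 17 Jun. Both lists were chosen on these libraries, so the shares describe the size of the turnover and test nothing.

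Some transcripts were counted on a single date. Of the risen, 118 had no count in any library of 17 Jun, and 81 of them had counts in all 4 July libraries. Of the fallen, 118 had no count on 7 Jul, and 49 of them had counts in all 4 June libraries. A call favours counts in every library of the other date, and the share among all tested transcripts was not counted. The 3 most abundant of the first kind were not shared by the trees. CCTO89 had 67.1 CPM of psme_t037567, 26.1 CPM of psme_t104564 and 6.61 CPM of psme_t145859 on 7 Jul, against 0 CPM in all trees on 17 Jun, and the highest value of any other July library was 0.0534 CPM.

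Against a floor of 3 counts over the June libraries, the July means of psme_t037567, psme_t104564 and psme_t145859 were at least 389-fold, 151-fold and 38.3-fold higher. The calls for these (adjusted p = 0.0425, 0.047 and 0.00171) rest on CCTO89 alone. On 28 Jul CCTO89 no longer had them above 0.0517 CPM. This was unlike psme_t065053, which that tree still held at 333 CPM on 28 Jul and at 2.30 CPM on 17 Aug.

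Among falls to no count, psme_t055383 was counted in all 4 trees on 17 Jun, though mostly in CCTO89. It had 0 CPM in each tree on 7 Jul, against 0.950, 0.114, 4.19 and 0.0550 CPM on 17 Jun in CCTO44, CCTO46, CCTO89 and CCTO90. The June values of CCTO46 and CCTO90 lay under the floor of 3 counts in these libraries (0.171 and 0.165 CPM), so no fall can be read there. Its July level was at least 36.8-fold below the June mean of the 4 trees (adjusted p = 0.000464, edgeR). On 28 Jul it was still uncounted in all trees. The other 2 rested almost wholly on 1 tree. All July libraries had 0 CPM of psme_t118705, against 12.0 CPM in CCTO46 and 0.0591 CPM in CCTO89 on 17 Jun. Likewise psme_t063068 had 0 CPM on 7 Jul, against 4.96 CPM in CCTO89 on 17 Jun and 0 CPM in the others.

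The trees moved together in most called transcripts. All 4 trees changed in the same direction in 10949 called transcripts (91.3%), against 39.0% of all tested, though the calls themselves favour such agreement. Every July library lay above every June library in 5737 transcripts, 9.42% of those tested, and below in 3980, 6.53%. Among the risen this was so for 4342 (66.5%) and among the fallen for 2926 (53.5%), values that the calls partly fix.

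At 10 CPM or more, 942 transcripts rose and 597 fell at least 2-fold within CCTO44, 967 and 640 within CCTO46, 920 and 746 within CCTO89, and 703 and 566 within CCTO90, counted on single pairs of libraries without a test. CCTO90 thus had the fewest large changes in both directions, although the median size of change was about the same in all, 0.41 to 0.44 on the log2 scale. Across the 11549 transcripts, the changes of 2 trees correlated with Pearson's r between 0.67 (CCTO89 and CCTO90) and 0.83 (CCTO46 and CCTO90). Transcripts are not independent replicates, and these values share the scaling of the libraries.

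No transcript was called as changing differently between higher and lower seed localities (0% of the transcripts, by an F test of the difference in edgeR). An unadjusted p under 0.05 was found for 1262, or 2.07%. The lowest adjusted p was 0.927. Without CCTO89, which leaves 1 tree from the lower locality, 3 transcripts passed. With 2 trees per locality, differences may have been missed, so the lack of calls does not show that the localities changed alike.

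Through the rest of the year, the risen and fallen transcripts were followed on the 14 other dates. These dates were not compared in making the lists, but their libraries entered the filter, scaling, tree terms and spread behind the calls. The median of the risen transcripts was lowest in late spring and highest in late summer. Relative to the mean of those 14 dates, it stood at -0.39 on 7 Apr, -0.70 on 6 May and -0.63 on 17 Jun on the log2 scale. It then stood at 0.50 on 7 Jul, 0.49 on 28 Jul, 0.55 on 17 Aug, 0.28 on 7 Sep (2 libraries), -0.04 on 7 Oct and 0.16 on 26 Oct 2011. Fallen transcripts mirrored this, at 0.52, 0.68, 0.60, -0.37, -0.38, -0.43, -0.32, -0.03 and -0.31 on the same dates. The 6 May level lay near that of 17 Jun, and the 28 Jul and 17 Aug levels near that of 7 Jul. Of the 4 libraries of 17 Aug, 2 (CCTO44 and CCTO46) have labels that were in doubt in an earlier look at these data. They enter neither 7 Jul nor 17 Jun, and without them 6649 transcripts rose and 6513 fell.

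**Figure D3:**
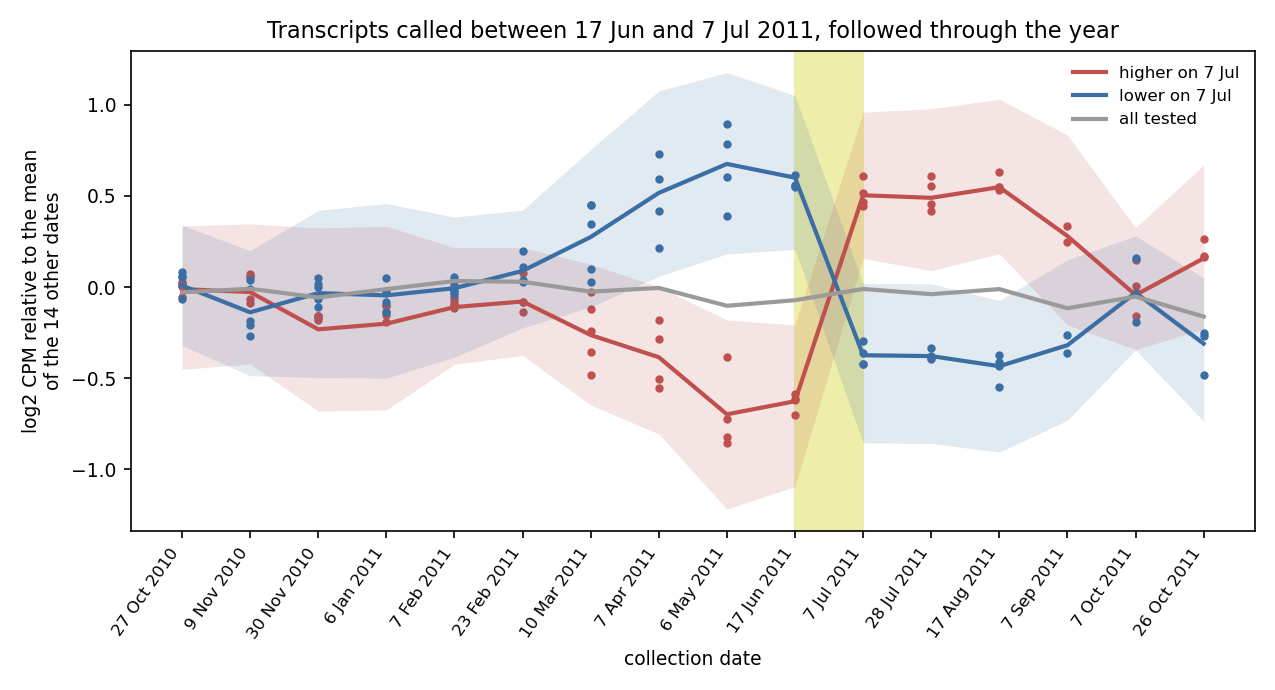
Median log2 CPM of risen (red), fallen (blue) and all tested (grey) transcripts by date, relative to each transcript's mean over the 14 dates other than 17 Jun and 7 Jul, with dots for single libraries and shading for the middle 50% of transcripts. The lines for risen and fallen transcripts cross between 17 Jun and 7 Jul (yellow band) and stay apart until 7 Sep. They are close on 7 Oct and apart again on 26 Oct 2011, and the grey line stays near 0.

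Over the same 14 dates, 53.5% of the risen transcripts had their highest mean level on 28 Jul, 17 Aug or 7 Sep, against 4.96% of the fallen and 23.1% of all tested. Without 7 Sep, which had 2 libraries, these shares were 39.2%, 0.366% and 13%. Another 13% of the risen were highest on 26 Oct 2011, against 7.96% of all. Of the fallen, 53.1% had their highest level on 7 Apr or 6 May, against 2.25% of the risen and 20.1% of all. On 6 May 41.4% of the risen had their lowest level, against 15.7% of all. The change between 17 Jun and 7 Jul covered a median of 51.1% of a risen transcript's range over the 14 dates, and -44.9% of a fallen one's. At 10 CPM or more these were 45.7% and -41.4%. The lists were chosen for this change, so the values describe its size and test nothing.

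The step was also read between dates that were not compared in making the lists, within the same model. On 28 Jul against 6 May, which lie 83 days apart and enclose the interval, 9644 transcripts (15.8%) were higher and 9949 (16.3%) lower. Of the risen, 4748 (72.7%) were also higher and 7 lower, and of the fallen, 4205 (76.9%) were also lower and 8 higher. Among transcripts that were not called in July, 9.99% were higher and 11.7% lower. The risen made up 49.2% of all that were higher on 28 Jul, and the fallen 42.3% of all that were lower. Their median log2 changes were 1.32 and -1.12, against 0.01 over all tested. With single trees left out, 71.9% to 83.3% of the risen and 66.7% to 79.0% of the fallen did so.

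Both lists were also set against winter and autumn. On 6 Jan against 6 May, 32.1% of all tested were higher and 29.1% lower. Of the risen, 2790 (42.7%) were higher and 19.6% lower, and of the fallen, 3022 (55.3%) were lower and 17.8% higher. On 7 Oct against 6 May, 15.9% of all tested were higher and 15.8% lower. Of the risen, 2800 (42.9%) were higher and 5.28% lower, and of the fallen, 2547 (46.6%) were lower and 5.64% higher. These 3 comparisons share the 6 May libraries, so they are not independent of each other, and the tree terms and the spread come from 1 model.

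**Figure D4:**
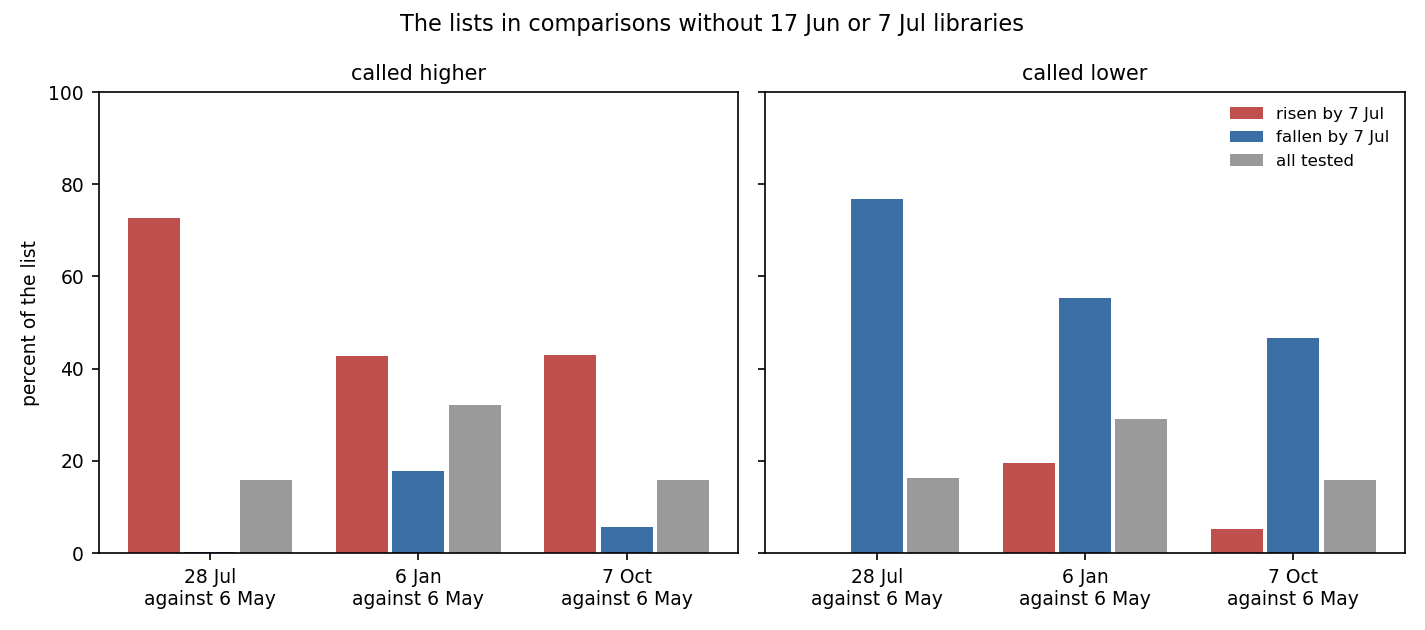
Percent of the risen (red), fallen (blue) and all tested (grey) transcripts called higher (left) or lower (right) in 3 comparisons between dates other than 7 Jul and 17 Jun. On 28 Jul against 6 May, 72.7% of the risen were higher and 76.9% of the fallen lower, beside 15.8% and 16.3% of all tested.

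The transcripts with the largest changes did not share a single course through the year. The rises of psme_t111352, psme_t033283 and psme_t046428 came after a smaller peak in May. For psme_t033283 the mean level was 0.968 CPM on 27 Oct 2010, 12.5 CPM on 7 Apr, 79.9 CPM on 6 May, 19.1 CPM on 17 Jun, 242 CPM on 7 Jul, 475 CPM on 7 Sep (2 trees) and 19.3 CPM on 26 Oct 2011. For psme_t046428 it was 0.534, 6.38, 49.1, 12.1, 148, 247 and 12.8 CPM on these dates. Both were lower on 17 Jun than on 6 May before they rose.

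In psme_t028250 the mean fell after 17 Aug, rose again on 26 Oct 2011 and stayed above its June level throughout. It was 2.01 CPM on 6 May, 2.88 on 17 Jun, 30.9 on 7 Jul, 42.5 on 28 Jul, 43.6 on 17 Aug, 18.6 on 7 Sep, 16.4 on 7 Oct and 38.4 on 26 Oct 2011, against 4.87 CPM a year earlier on 27 Oct 2010. The 26 Oct 2011 mean was that of 3 libraries between 19.9 and 71.8 CPM. Each tree was at or above 33.9 CPM on 28 Jul, against 4.61 CPM or less on 6 May. Mean levels of psme_t047539 were 1.61 CPM on 17 Jun, 20.8 on 7 Jul, 88.2 on 28 Jul and 31.8 on 17 Aug. They were 6.26 on 7 Sep, 0.606 on 7 Oct and 5.83 on 26 Oct 2011. On 28 Jul CCTO89 and CCTO90 had 208 and 115 CPM of it, and CCTO44 and CCTO46 had 4.09 and 25.6 CPM. The 7 Sep libraries came from CCTO44 and CCTO46, and those of October 2011 from CCTO43, CCTO44 and CCTO90. Changes after August thus mix date with the trees sampled, and their part was not tested.

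Of the fallen, psme_t033803 was high from March, with 378 CPM on 10 Mar, 285 on 7 Apr, 311 on 6 May and 97.0 on 17 Jun, then 3.43 on 7 Jul and 0.127 on 17 Aug. The pair psme_t037670 and psme_t036026 followed a later spring course, with 13.8 and 19.6 CPM on 10 Mar, 45 and 62.9 on 7 Apr, 25.5 and 35.2 on 17 Jun and 1.88 and 2.84 on 7 Jul. The pair psme_t026765 and psme_t024497 was also present in January, at 20.6 and 56.5 CPM on 6 Jan, 48.9 and 119 CPM on 7 Apr, and 0.489 and 0.606 CPM on 28 Jul. On 28 Jul against 6 May all 16 of these transcripts had a fitted change in the direction of July and passed the test, psme_t065053 again through CCTO89 alone. In psme_t037670 and psme_t036026, CCTO89 went the other way, with 3.20 and 2.84 CPM on 28 Jul against 0.595 CPM of each on 6 May.

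**Figure D5:**
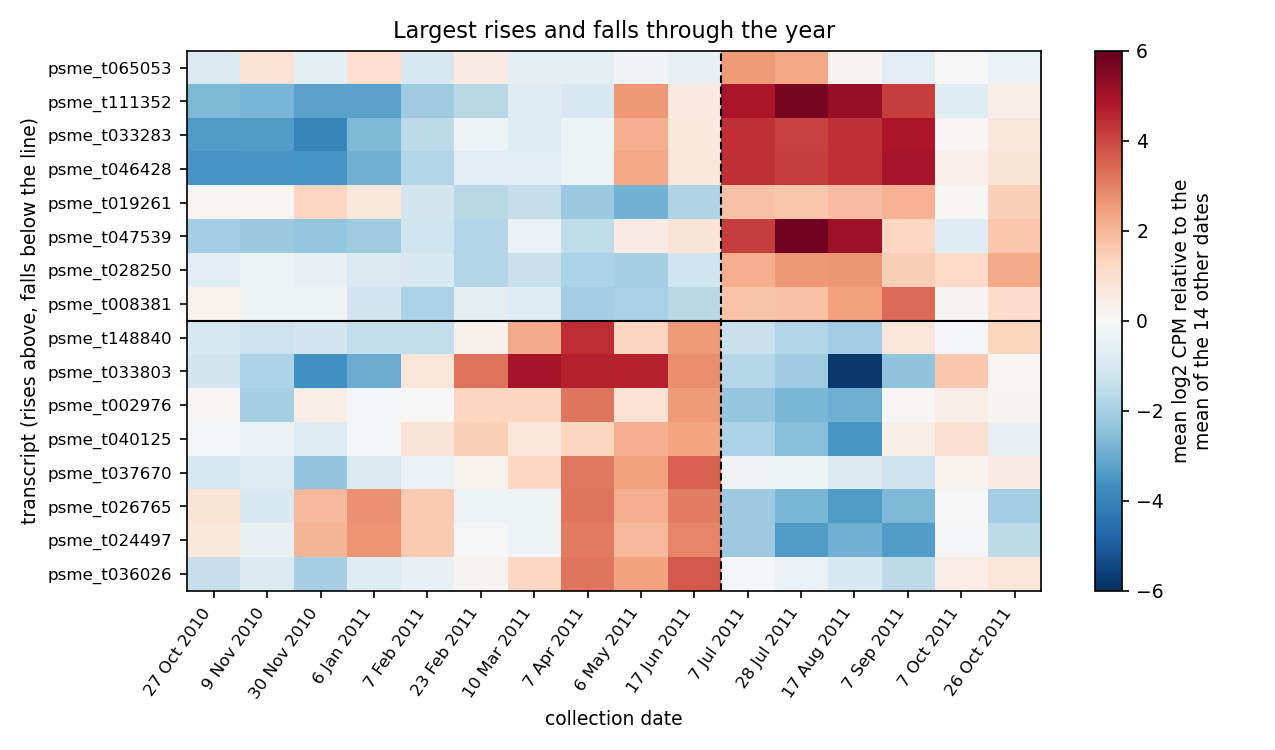
Mean log2 CPM by date of the 8 transcripts with the largest rises (above the line) and the 8 with the largest falls (below it), relative to the mean of the 14 dates other than 17 Jun and 7 Jul; red is higher and blue lower. The dashed line separates 17 Jun from 7 Jul: rises stay red to 7 Sep in most transcripts, falls were red from spring to 17 Jun, and psme_t111352, psme_t033283 and psme_t046428 have a smaller peak on 6 May.

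The most abundant transcripts took up a smaller part of each July library, in a design too small for a p under 0.05. The 20 most abundant transcripts of a library held 19.9 ± 4.80% of its counts on 7 Jul and 27.0 ± 3.32% on 17 Jun (SD, n = 4 each), lower in each tree (two-sided exact sign-flip permutation test, p = 0.13, the smallest that 4 trees allow). At an equal depth of 18318650 counts, 72665 ± 3530 transcripts had at least 1 count on 7 Jul and 71244 ± 3511 on 17 Jun, higher in 3 of 4 trees (p = 0.25, same exact test). Those with at least 5 counts numbered 40584 ± 1446 on 7 Jul and 37895 ± 1348 on 17 Jun, more in each tree (p = 0.13, same exact test). The larger share of the top transcripts on 17 Jun leaves fewer counts for the rest there, and its part in the difference in detection was not tested.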

How the data were processed

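Per the labels' protocols, the libraries were made from poly(A) RNA of needles and were strand-marked with dUTP. The tools CASAVA 1.8, Bowtie2 2.2.3 and DESeq are listed, without role or order, per the submitters' processing notes. Which reference was used, and how reads were counted, is not given in the sources used here. For this reason, reads of near-identical or overlapping transcripts may be split between identifiers. The table used holds whole-number counts as deposited by the authors, and each of its columns matched a library. Normalized and interpolated tables from the same authors were not used.

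Transcripts were kept by filterByExpr (date as group, minimum count 10), scaled by TMM and tested in edgeR 4.0.16 (limma 3.58.1, R 4.3.3): a robust quasi-likelihood fit on all 66 libraries of 16 dates with date and tree as terms, F tests and Benjamini-Hochberg adjustment over 60931 transcripts, with calls at an adjusted p under 0.05. The tree is the block because the same tree was sampled on both dates. After subtracting date means, the July and June libraries of a tree correlated at 0.762 to 0.857. With other trees no correlation was above -0.01, but subtracting a mean of 4 trees itself pushes these values below 0. No pair of libraries of a date agreed within sampling noise (lowest chi-square per degree of freedom 46.6). The trees are separate plants. Because tree and date are terms of the model, p-values refer to the spread left after the tree and date levels. That spread is pooled over all 66 libraries and 16 dates (46 residual degrees of freedom), not taken from the 8 libraries alone. Depth was 18318650 to 25648111 counts. Log2 levels used a prior count of 2. Equal depth was reached by drawing counts without replacement. The tests were checked on simulated counts.

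Transcripts were named by these criteria: at least 10 CPM on average, a call and the same direction in 4 trees, then the 8 largest log2 changes each way; the 4 largest differences of mean CPM each way among calls with the same direction in 4 trees; the 3 most abundant transcripts that did not pass; and the 3 highest each way among calls with no count on a date. A part of the rule for transcripts that differ by locality named none. The comparison, the lists and the rule were chosen with earlier results of these data known. Transcripts named outside the rule are psme_t001906 and those of the closing section. Alternatives were RLE and upper-quartile factors, removal of the 20 most abundant transcripts, no filter and a stricter filter, DESeq2 1.42.0, no robust step, the 8 libraries alone, no tree block, each tree left out and 2 libraries of 17 Aug left out. Older dispersion estimates and the omission of 2 libraries of 17 Jun were added after the data were seen. Gene lists were not used, because identifiers are not paired with names.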

Additional observations from a re-analysis of the deposited data

Results flagged for a closer look

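In 11 of 66 groups of 4 values, made of 33 named transcripts on 2 dates, the most extreme tree lay further from the rest than the 95% critical value for 4 samples allows (Dixon's ratio of gap to range, on the log2 scale of CPM plus 0.1). Chance gives this in about 1 of 20 groups, and some of these transcripts were named because a single tree was high.

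On 7 Jul CCTO89 stood above the other trees in psme_t065053 (193.5 CPM), psme_t037567 (67.07 CPM), psme_t104564 (26.05 CPM) and psme_t145859 (6.61 CPM). It stood below them in psme_t037670 (0.5832 CPM) and psme_t036026 (0.729 CPM). CCTO90 was below the others on 7 Jul in psme_t046428 (84.71 CPM) and psme_t028250 (23.46 CPM).

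On 17 Jun CCTO89 was low in psme_t046227 (1465 CPM) and high in psme_t063068 (4.962 CPM), and CCTO46 was high in psme_t118705 (12.04 CPM). In the first of these CCTO89 was also lowest on 7 Jul, at 1133 CPM. What sets these trees apart was not tested.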

How the results depend on the processing

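The number of calls between 7 Jul and 17 Jun changed with the trees and the block more than with the scaling. Rises and falls numbered 5942 and 6220 with RLE factors, 5906 and 6252 with upper-quartile factors, 6222 and 5912 with TMM factors without the top transcripts, and 6418 and 6458 with DESeq2, so the excess of rises over falls turned in 3 of these 4. The 8 libraries alone gave 8377 and 7875, and no setting turned a call into one of the opposite direction. Leaving out single trees gave 3716 to 4982 rises and 3453 to 4177 falls, and 2555 rises and 1971 falls were called in every such fit. Of the risen, 2673 to 3729 were higher on 28 Jul than on 6 May. On 6 Jan and 7 Oct, 1433 to 2187 and 1360 to 1779 were higher. These were 71.9% to 83.3%, 38.6% to 50.2% and 33.3% to 46.9% of the risen. Of all tested, 9.24% to 13.9%, 26.4% to 30.4% and 10.8% to 15.7% were higher. Of the fallen, 2418 to 3143, 1753 to 2206 and 1375 to 1888 were lower. These were 66.7% to 79.0%, 50.8% to 57.4% and 37.9% to 50.8%. Of all tested, 10.9% to 15.5%, 24.6% to 28.0% and 10.0% to 15.9% were lower. Locality differences numbered 0 to 3.

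With no replicate block there were 3838 rises and 2945 falls. Of these, 3010 and 2240 held on 28 Jul, 1792 and 1579 on 6 Jan and 1554 and 1298 on 7 Oct. These were 78.4% and 76.1%, 46.7% and 53.6%, and 40.5% and 44.1% of the lists. Of all tested, 11.2%, 27.6% and 11.4% were higher on these dates than on 6 May, and 11.2%, 24.5% and 11.2% lower. Without a filter, 170625 transcripts were tested and 3241 fell. Of these, 2391, 1778 and 1401 (73.8%, 54.9% and 43.2%) were lower on 28 Jul, 6 Jan and 7 Oct. Of all tested in that setting, 4.47%, 10.4% and 4.61% were lower. On 7 Oct 1568 risen ones (33.5%) were higher, beside 4.03% of all tested. Without the 17 Jun libraries of CCTO44 and CCTO89, chosen after seeing the data, 3734 rose, 3595 fell and 1719 of the risen were higher on 7 Oct. For the transcript psme_t089477, which did not pass, the log2 change was 0.073 without CCTO46, between -0.14 and -0.10 without another tree. The cause of these shifts was not tested. Of 33 named transcripts, 16 kept their side of the threshold and their direction in every setting. Depth limits calls under 1 CPM, and 4 trees allow no sign-flip p under 0.05.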

Other observations

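A few transcripts moved in opposite directions between 17 Jun and 7 Jul and between 6 May and 28 Jul: 7 of the risen were lower on 28 Jul than on 6 May, and 8 of the fallen were higher. They are named after their values were seen. The most abundant was psme_t017358, at 314 CPM on 7 Jul and 424 CPM on 17 Jun (log2 change -0.43, adjusted p = 0.025, edgeR), with a log2 change of 0.45 on 28 Jul against 6 May (adjusted p = 0.0107). For psme_t080894 the means were 16.5 CPM on 7 Jul and 28.2 CPM on 17 Jun, and the changes were -0.76 and 0.57 (adjusted p = 0.00578 and 0.0292).

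In the opposite direction, psme_t027929 had 7.01 CPM on 7 Jul and 2.65 CPM on 17 Jun (log2 change 1.41, adjusted p = 0.00355), but a log2 change of -1.66 on 28 Jul against 6 May (adjusted p = 0.00025). The same course was seen in psme_t007163, with 5.06 CPM on 7 Jul and 2.38 CPM on 17 Jun and log2 changes of 1.20 and -1.81. With 11996 calls in the first comparison, such a small number is a description of these transcripts and no more.

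Single trees had few large changes of their own. At 10 CPM or more, 0 to 5 transcripts were at least 4-fold lower on 7 Jul in 1 tree while the others moved less than 2-fold, and 1 to 5 were higher in this way. Against these counts stand the 33 that were lower in CCTO44 and CCTO89 together. After psme_t001906, psme_t000146 and psme_t002753, the most abundant of the 33 was psme_t000085, at 361, 485, 576 and 1028 CPM on 7 Jul in CCTO44, CCTO46, CCTO89 and CCTO90, against 6364, 627, 4005 and 602 CPM on 17 Jun.

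In 7 of the 33, CCTO89 was above CCTO44 on 17 Jun. The most abundant of these were psme_t042356 and psme_t042819. On 7 Jul psme_t042356 had 8.64 CPM in CCTO44 and 115 CPM in CCTO89, against 96.7 and 1098 CPM on 17 Jun, and psme_t042819 had 17.2 and 108 CPM on 7 Jul, against 149.7 and 906 CPM on 17 Jun. In the abundant members named above CCTO44 was the higher of the pair on 17 Jun.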
